A study of Homo sapiens with 8 samples.

Results

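The upstream flanks of H/ACA snoRNAs were taken as the nucleotides 1 to 50 nt before the annotated 5′ end, on the same strand, of the 214 GENCODE 44 snoRNA genes whose symbol is SNORA and a digit, leaving out positions inside any other snoRNA or scaRNA. Called crosslink sites in these flanks covered 870 distinct nucleotides, of 1623913 in the whole series. They lay in 122 of the 214 flanks. A further 27 snoRNAs had sites in the RNA itself and none upstream, and 65 had no site at all. The flanks were divided into a near zone of 1 to 5 nt and a far zone of 6 to 50 nt, and each site was weighted by its cDNAs, the independent reverse transcription products that end there. All 122 flanks had a near site and 76 had a far one.

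The sites came from iCLIP, in which ultraviolet light links proteins to the RNA they touch and a truncated cDNA marks the linked nucleotide. The site is placed 1 nt before the start of the cDNA. A cDNA that instead ran through to the 5′ end of an RNA is therefore also listed 1 nt upstream of that end. Such cDNAs could not be told apart from truncated ones. Nuclei of U2OS, a human osteosarcoma cell line, were precipitated with an antibody to dyskerin (2 libraries), an antibody to GAR1 (2 libraries), or mouse IgG, with 2 IgG libraries labelled for the dyskerin set and 2 for the GAR1 set. The study's antibody list gives a mouse dyskerin antibody and a rabbit GAR1 antibody for precipitation, so the IgG was not of the GAR1 antibody's species. GEO's labels number the replicates without naming separate cultures, while the study's figure legends for dyskerin and GAR1 iCLIP speak of independent experiments. Without named cultures, p-values measure only the spread between these libraries, which may in part be technical.

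H/ACA snoRNAs are short nuclear RNAs that fold into a pair of hairpins joined by a hinge, the H box, and end in an ACA box. They guide dyskerin, the pseudouridine synthase, to uridines of ribosomal and spliceosomal RNA, and GAR1 is a further core protein of the same particle. Most human members are excised from introns of host genes, where exonucleases trim the ends of the precursor up to the particle, so the bases just upstream of a mature 5′ end belong to the intron or to a longer form of the RNA.

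The sequences that carry the result are those of the first 6 flanks by mean level in each zone, given 5′ to 3′ as 20 upstream bases and the first 10 of the snoRNA. Capitals mark upstream positions that held at least 10% of the flank's upstream cDNAs, as a mean over the 4 antibody libraries. The near zone was led by the following 6, of which SNORA26 also led the far zone and SNORA73B was also among the leading far flanks.
SNORA73B: attcctcactaatgagCATTccaacgtgga
SNORA73A: ttatgcgttacactgatTGTccaacgtgga
SNORA81: tgattgttagacattattTTaccttcttgt
SNORA63: aaatgtctggatttccACTaaagcaggatt
SNORA26: atcacaaAGcaccctttccTgtgccctttt
SNORA40: tatgtagtgcattttgGGActgcacttatg
The other leading flanks of the far zone were these 4.
SNORA23: atgtaaatcttTACatggctgctgtaatgt
SNORA65: cttggttttgcCCtcagccacccgccactg
SNORA28: tcattaaacttgaaTAttgcaagcaacact
SNORA63D: atgagttttctccaGCtggcaggttggatt

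In 5 of the near 6 the capitals stand within the last 4 upstream bases, and in SNORA26 a second pair of capitals stands 12 and 13 nt upstream. On GRCh38 the windows are chr1:28508539-28508568 (SNORA73B, plus strand) and chr1:28507346-28507375 (SNORA73A, plus), both within the snoRNA host lncRNA SNHG3 and the overlapping gene RCC1, the nucleotide exchange factor of the GTPase Ran. SNORA81 (chr3:186786655-186786684, plus) and SNORA63 (chr3:186787280-186787309, plus) lie in EIF4A2, a translation initiation helicase. SNORA26 (chr4:52713229-52713258, plus) lies in the lncRNA DANCR and the overlapping LINC01618, and SNORA40 (chr11:93735227-93735256, minus) in TAF1D, a factor of RNA polymerase I. SNORA23 (chr11:9428753-9428782, plus) lies in IPO7, a nuclear import receptor, and SNORA65 (chr9:127448621-127448650, minus) in RPL12, a ribosomal protein gene. SNORA28 (chr14:103337829-103337858, plus) lies in EIF5, a translation initiation factor, and SNORA63D (chr3:183451837-183451866, plus) in the lncRNA LINC00888. Of the 122 snoRNAs with an upstream site, 90 lay within protein-coding genes only, 19 within lncRNAs only, 6 within both, 6 within a lncRNA and a transcribed pseudogene, and 1 within a processed pseudogene. An annotated exon of a longer gene overlapped 59 of the flanks, and the nearest upstream exon of a surrounding gene was a median of 261.5 nt away.

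Depth differed widely and bears on every comparison. Cells were checked against bone genes fixed as markers: COL1A1 held 977 and 1741 cDNAs in dyskerin, 0 and 245 in GAR1, and 26 or fewer in the IgG libraries, while RUNX2 and SPARC were listed in both dyskerin libraries, COL1A2 was at 0, and PTPRC, EPCAM and ALB were at 0 in all 8. The sums over called sites were 1693951 and 1875459 cDNAs in dyskerin, 585454 and 1976518 in GAR1, 146514 and 8183 in the IgG of the dyskerin set, and 295255 and 10701 in the IgG of the GAR1 set. The H/ACA flanks took 1.16% and 2.32% of these in dyskerin and 9.33% and 10.5% in GAR1, against 1.73% and 10.2% in the IgG of the dyskerin set and 13.2% and 10.7% in that of the GAR1 set. Fewer molecules of an RNA in the precipitate and weaker crosslinking cannot be told apart in such sums.

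The cDNAs of called sites peaked 2 nt before the 5′ end in all 8 libraries. That position held 3.21% and 4.79% of all H/ACA snoRNA cDNAs (flank plus RNA) in dyskerin and 3.84% and 4.36% in GAR1, against 3.25% and 6.32% in the IgG of the dyskerin set and 5.33% and 5.55% in that of the GAR1 set. Positions 1 and 3 nt upstream followed, and the level at 5 nt was at most 0.47% in each library. Inside the RNA the signal dropped to a trough from position 2 to 7, where no position exceeded 0.90%, and formed a broader second peak from position 9 to 16. Position 14 held 3.87% and 3.84% in dyskerin and 3.69% and 2.97% in GAR1, against 7.81% and 5.93% in the IgG of the dyskerin set and 5.04% and 5.66% in that of the GAR1 set. The 50 nt after the 3′ end held 0.0307% and 0.0525% as many cDNAs as the RNA bodies in dyskerin and 0.0117% and 0.0219% in GAR1, against 0 in 3 of the 4 IgG libraries and 0.0039% in replicate 1 of the GAR1 set. The files list only sites that passed the call in their own library, so a 0 is no measured absence.

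**Figure D1:**
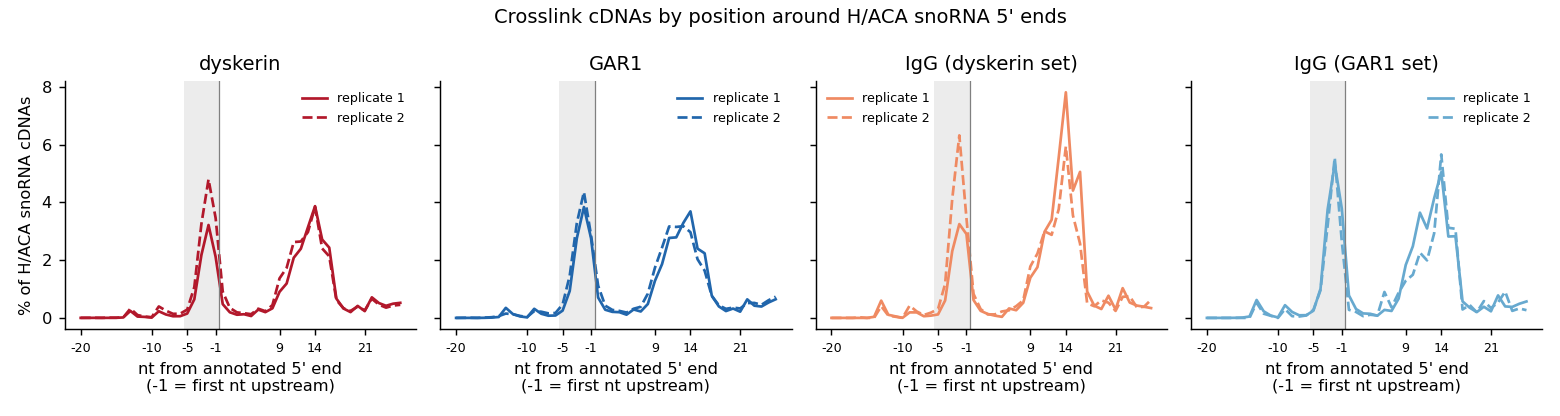
Percent of H/ACA snoRNA cDNAs at each position from 20 nt upstream to 26 nt into the RNA, in 1 panel per group with 1 line per library. The near zone is shaded and the grey line marks the 5′ end. All 8 lines peak at 2 nt upstream, with 3.21% to 6.32% of cDNAs, and again around position 14.

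Most upstream cDNAs lay in the near zone in every group. Its share was 90.2% ± 1.04 in dyskerin and 90.2% ± 0.778 in GAR1, against 89.3% ± 2.76 in the IgG of the dyskerin set and 89.8% ± 1.84 in that of the GAR1 set (SD, n = 2 each). The 4 antibody libraries averaged 0.66 percentage points above the 4 IgG libraries, within their spread (exact two-sided permutation test over 70 arrangements, p = 0.543, adjusted over 3 measures 0.543). The sign of this difference was not stable: it was -15.8 points when each site counted once (p = 0.0286 by the same exact test, the smallest this design allows), with 99 and 202 far sites in dyskerin and 113 and 238 in GAR1, against 26 and 12 in the IgG of the dyskerin set and 76 and 14 in that of the GAR1 set.

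As a share of all H/ACA snoRNA cDNAs, the near zone held 8.30% and 12.9% in dyskerin and 10.5% and 12.4% in GAR1, against 9.18% and 15.4% in the IgG of the dyskerin set and 14.1% and 12.6% in that of the GAR1 set. The groups overlapped, and the antibody libraries averaged 11.03%, against 12.8% for IgG (exact permutation test, p = 0.314, adjusted 0.471). The far zone held 1.18% ± 0.487 in dyskerin and 1.24% ± 0.0355 in GAR1, against 1.41% ± 0.102 in the IgG of the dyskerin set and 1.54% ± 0.426 in that of the GAR1 set (SD, n = 2 each; exact permutation test of antibody against IgG, p = 0.257, adjusted 0.471). With each site counted once the antibody minus IgG differences were -3.69 points for the near zone and 0.668 points for the far zone, the far zone turning its direction (exact permutation tests, p = 0.0286 each, the smallest this design allows). A contrast of 2 against 2 libraries cannot go below p = 0.33 by permutation and was given as values only.

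H/ACA snoRNAs had a smaller share of their signal in the near zone than C/D snoRNAs, the class that guides ribose methylation, in 8 of 8 libraries. This share is out of flank plus RNA and was not scaled to the length of the RNA. Lengths were not compared between the classes. The C/D share was 17.8% and 19.96% in dyskerin, 24.04% and 25.3% in GAR1, 20.4% and 21.6% in the IgG of the dyskerin set and 30.6% and 28.2% in that of the GAR1 set. H/ACA minus C/D averaged -11.6 percentage points (SD 3.75, n = 8 libraries, exact sign-flip permutation test, p = 0.00781, the smallest this design allows), and ranged from -16.5 to -6.24. With the mean over snoRNAs in place of the pooled sum it was -8.78 points (exact sign-flip permutation test, p = 0.0703). In scaRNAs, the Cajal body class, the near share was 8.61% and 8.97% in dyskerin and 15.5% and 15.01% in GAR1, against 7.82% and 6.58% in the IgG of the dyskerin set and 12.8% and 16.8% in that of the GAR1 set, on both sides of the H/ACA values.

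**Figure D2:**
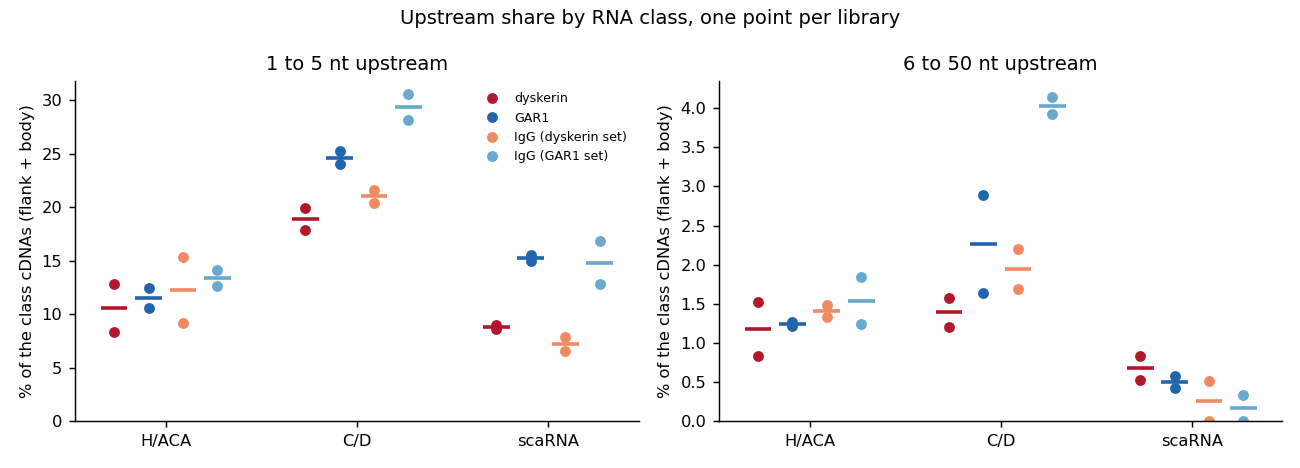
Share of each RNA class's cDNAs in the near zone (left) and the far zone (right), with 1 point per library and a bar at the mean of 2. H/ACA near shares run from 8.30% to 15.4% and lie below the C/D share of the same library in all 8.

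Single flanks had narrow peaks. In the 83 flanks with at least 20 upstream cDNAs in each antibody library, a median of 95.5% of upstream cDNAs lay within 1 nt of the flank's own highest position. That position was 1 nt upstream in 17 flanks, 2 nt in 36, 3 nt in 19, 4 nt in 4 and 5 nt in 2, and 1 flank each peaked at 6, 7, 8, 9 and 13 nt. The highest position was the same in all 4 antibody libraries for 71 flanks and in 3 of 4 for 9. Of 9 flanks deep enough to ask this in all 8 libraries, 7 had 1 common highest position, IgG included. The base at the highest position was T in 25 flanks, A in 21, C in 19 and G in 18. T took 39.5% and 37.5% of near cDNAs in dyskerin and 36.6% and 35.1% in GAR1, against 32.4% and 39.7% in the IgG of the dyskerin set and 35.2% and 36.7% in that of the GAR1 set, beside 36.1% of the 610 near positions themselves.

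The highest position in a set window after the upstream peak stood at a like distance from it in most RNAs. From 6 to 25 nt downstream of the upstream peak, the next highest position was 10 to 18 nt away in 79 of the 83 RNAs. The median spacing was 13.5 nt for the 78 with a near peak, and 14 nt (range 12 to 17) for the 5 that peaked further out. The exceptions were SNORA30 at 9 nt, SNORA12 at 20 nt, SNORA73B at 23 nt and SNORA73A at 24 nt. The next highest position was the same in all 4 antibody libraries for 59 RNAs, in 3 of 4 for 15 and in 2 or fewer for 9, among them SNORA14A and SNORA30. This measure and its window were chosen after the positions had been seen. Higher positions can lie beyond the window. In SNORA65 position 20, beyond it, held 652 and 795 cDNAs in dyskerin and 740 and 1837 in GAR1. Its next peak within the window, at position 6, held 303 and 497 in dyskerin and 413 and 1345 in GAR1. For SNORA26 the next peak was still upstream, 1 nt before the 5′ end, and not inside the RNA.

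**Figure D3:**
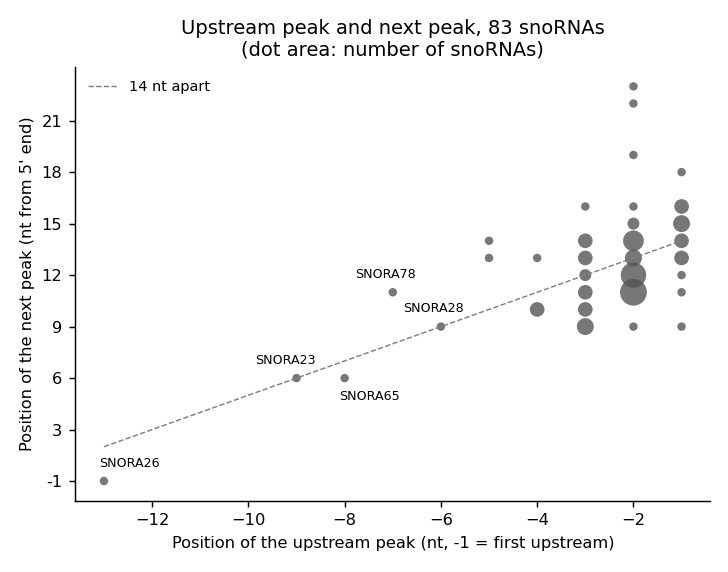
Position of the upstream peak (x axis, nt) and of the next peak 6 to 25 nt downstream of it (y axis, nt from the 5′ end) in 83 snoRNAs, from means over the 4 antibody libraries, with dot area giving the number of RNAs. SNORA28, SNORA23, SNORA65, SNORA78 and SNORA26 peak further upstream, and their next peaks within this window are 12 to 17 nt away like those of most others. The next peak of SNORA26 is still upstream of the 5′ end, and SNORA65 has a higher position beyond the window.

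SNORA73B and SNORA73A, the U17 snoRNAs needed for cleavage of the 18S rRNA precursor rather than for pseudouridylation, led the near zone. SNORA73B had 4054 and 4679 near cDNAs in dyskerin and 5295 and 8085 in GAR1, against 184 and 132 in the IgG of the dyskerin set and 2658 and 203 in that of the GAR1 set. Scaled to 1000000 cDNAs in each library these were 2393 and 2495 in dyskerin and 9044 and 4091 in GAR1, against 1256 and 16131 in the IgG of the dyskerin set and 9002 and 18970 in that of the GAR1 set, so the antibody libraries did not stand above IgG on this scale. It held 22.7% and 12.04% of all near cDNAs in dyskerin and 10.8% and 4.30% in GAR1. In GAR1 replicate 2 the tallest position of some deep flanks held a smaller share of their upstream cDNAs. For SNORA73A it held 28.5%, against 56.7% and 51.2% in dyskerin and 51.8% in GAR1 replicate 1. For SNORA40 it held 45.7%, against 79.1%, 74.2% and 72.5% in that order. For SNORA28 it held 56.5%, against 61.2%, 55.8% and 61.0%. Whether this lowered the GAR1 replicate 2 counts and upstream shares of SNORA73B and SNORA73A was not tested. The RNAs of this pair are near-identical while their flanks differ, so reads with several alignments can blur their body values.

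SNORA73B had 27.1% and 31.3% of its own cDNAs upstream in dyskerin and 16.7% and 12.6% in GAR1, against 14.6% and 39.1% in the IgG of the dyskerin set and 18.7% and 28.2% in that of the GAR1 set. SNORA73A had 21.5% and 25.5% in dyskerin and 13.7% and 12.6% in GAR1, against 7.74% and 29.8% in the IgG of the dyskerin set and 11.4% and 27.8% in that of the GAR1 set. In both RNAs the dyskerin libraries lay above the GAR1 libraries without overlap and inside the range of IgG. Log2 fold differences of the upstream share, dyskerin over GAR1, were 1.00 (SE 0.29) for SNORA73B and 0.84 (SE 0.26) for SNORA73A, with an adjusted p of 0.806 each in edgeR over 238 RNAs.

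The upstream share differed widely between RNAs. Among the 109 H/ACA snoRNAs with at least 50 cDNAs in each antibody library, its mean over those libraries had a median of 11.8% and ran from 0% to 50.3%. SNORA26 was highest, with 39.3% and 47.7% in dyskerin and 63.3% and 51.0% in GAR1, against 61.5% and 59.7% in the IgG of the dyskerin set and 76.0% and 56.6% in that of the GAR1 set. SNORA40 followed with 40.8% and 56.7% in dyskerin and 38.8% and 36.2% in GAR1, against 54.0% and 68.8% in the IgG of the dyskerin set and 50.3% and 71.4% in that of the GAR1 set. Its paralog SNORA40B, in RAB3GAP1, had 22.4% and 41.8% in dyskerin and 35.8% and 42.0% in GAR1. SNORA84, in the isoleucyl-tRNA synthetase gene IARS1, had 25.02% and 35.4% in dyskerin and 35.4% and 40.9% in GAR1, and SNORA50C, in SNHG25, had 17.9% and 27.1% in dyskerin and 35.2% and 29.8% in GAR1. The median share was 11.8% over 54 RNAs whose flank overlapped an exon of a longer gene and 12.1% over 55 whose flank did not. It was 12.9% over 18 within lncRNAs only, 10.1% over 80 within protein-coding genes only and 15.5% over 10 within genes of several types.

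At the other end, SNORA11F, SNORA71B and SNORA73 (the copy in MIB1) had no upstream site in the antibody libraries, although SNORA71B held 784 and 1066 cDNAs in its body in dyskerin and 2651 and 9614 in GAR1. SNORA16A, in SNHG12, had 1 upstream cDNA in each dyskerin library and 2 and 3 in GAR1, beside 2707 and 3844 in its body in dyskerin and 5084 and 14885 in GAR1. For both, RefSeq places the 5′ end further downstream, by 24 nt in SNORA71B and 3 nt in SNORA16A. Measured from the RefSeq end, the near zone of SNORA71B held 81 and 146 cDNAs in dyskerin, 448 and 2292 in GAR1, 4 and 0 in the IgG of the dyskerin set and 285 and 0 in that of the GAR1 set. That of SNORA16A then held 304 and 641 in dyskerin, 692 and 2425 in GAR1, 59 and 8 in the IgG of the dyskerin set and 504 and 7 in that of the GAR1 set. SNORA6, in RPSA, had 1.1% and 1.9% upstream in dyskerin and 1.1% and 2.8% in GAR1. SNORA11F has the same 5′ end in RefSeq. Because up to 50 alignments of a read were kept, body cDNAs listed at a copy such as SNORA73 may come from reads of its relatives. This was not tested.

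**Figure D4:**
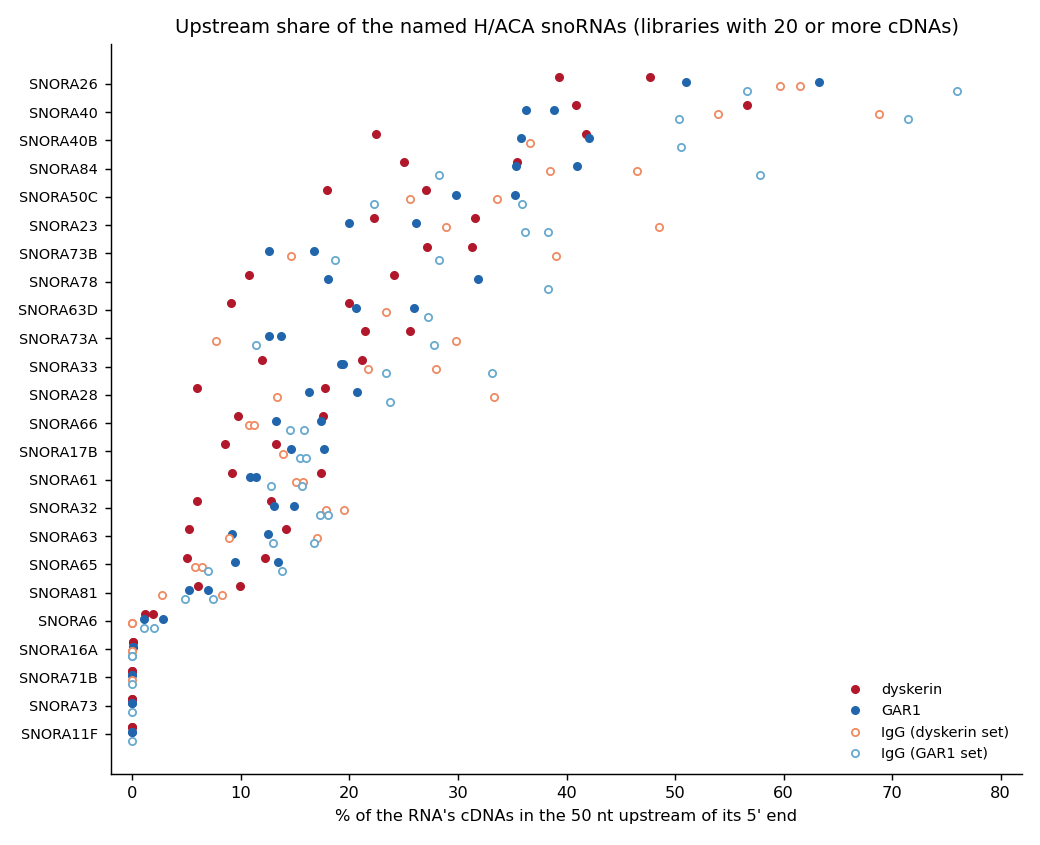
Percent of each named snoRNA's cDNAs that lie in the 50 nt upstream of its 5′ end, with 1 point per library (filled for dyskerin and GAR1, open for IgG) where the library held at least 20 cDNAs of it. Shares run from 0% to 76.0%, with SNORA26 and SNORA40 at the top.

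The far zone rested on few RNAs. SNORA26, SNORA23, SNORA65 and SNORA28 together held 88.5% and 86.9% of far cDNAs in dyskerin and 92.3% and 81.5% in GAR1, against 92.5% and 98.6% in the IgG of the dyskerin set and 94.3% and 97.1% in that of the GAR1 set. In the near zone these 4 held 1.63% to 4.85%. Beyond 20 nt upstream there were 5 and 135 cDNAs in dyskerin and 0 and 66 in GAR1, against 3 and 0 in the IgG of the dyskerin set and 0 in both of the GAR1 set, in at most 4 flanks of a library.

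SNORA26 had a pair of upstream peaks. At 13 nt upstream it had 513 and 961 cDNAs in dyskerin and 1613 and 2202 in GAR1, against 144 and 20 in the IgG of the dyskerin set and 1516 and 43 in that of the GAR1 set. At 1 nt upstream it had 298 and 212 in dyskerin and 1393 and 1911 in GAR1, against 36 and 7 in the IgG of the dyskerin set and 705 and 11 in that of the GAR1 set. The outer peak was the higher in all 8 libraries, and the pair were 12 nt apart. GENCODE and RefSeq give SNORA26 the same 5′ end.

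SNORA23 and SNORA65 peaked 9 nt and 8 to 9 nt upstream, and RefSeq starts both 7 nt further upstream than GENCODE. SNORA23 had 552 and 1537 far cDNAs in dyskerin and 1690 and 5383 in GAR1, against 49 and 33 in the IgG of the dyskerin set and 1128 and 29 in that of the GAR1 set. With the RefSeq end its far zone held at most 1 cDNA in any library, and its near zone 467 and 1162 in dyskerin and 1462 and 3978 in GAR1. SNORA65 had 277 and 793 far cDNAs in dyskerin and 642 and 2861 in GAR1, against 47 and 6 in the IgG of the dyskerin set and 559 and 6 in that of the GAR1 set, and 17 or fewer with the RefSeq end. Over all flanks, RefSeq ends were matched for 152 of the 214 genes, the same as in GENCODE for 108, further upstream for 20 and further downstream for 24. With RefSeq ends the far zone took 0.472% and 0.829% of the H/ACA cDNAs of these 152 genes in dyskerin and 0.777% and 0.854% in GAR1, against 0.988% and 0.769% in the IgG of the dyskerin set and 1.24% and 0.838% in that of the GAR1 set. Genes without a match were left out here, while the far shares with GENCODE ends cover all 214.

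SNORA28 peaked 6 nt upstream, just outside the near zone, with 63 and 250 cDNAs there in dyskerin and 169 and 1037 in GAR1, against 12 and 7 in the IgG of the dyskerin set and 108 and 3 in that of the GAR1 set. At 5 nt, just inside it, it had 30 and 152 in dyskerin and 72 and 576 in GAR1. SNORA63D straddled the same limit with peaks at 5 and 6 nt, and SNORA78, in SNHG9, peaked at 7 nt with 22 and 62 far cDNAs in dyskerin and 86 and 695 in GAR1. SNORA17B and SNORA50C, both in snoRNA host lncRNAs, completed the leading 10 of the far zone with SNORA73A and SNORA73B, all 4 with near peaks.

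**Figure D5:**
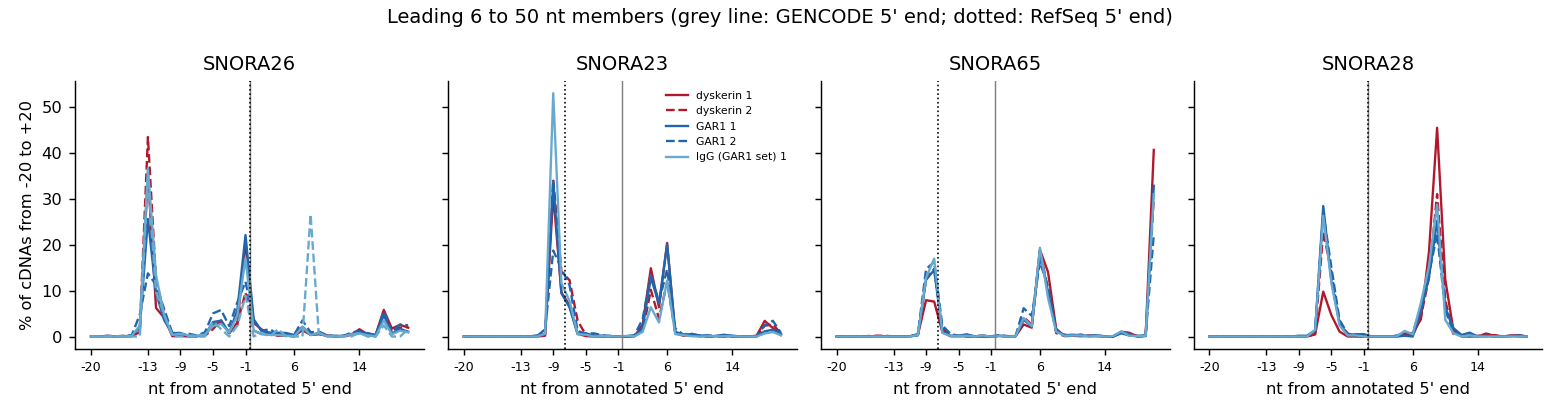
Percent of the cDNAs from 20 nt upstream to 20 nt into SNORA26, SNORA23, SNORA65 and SNORA28 at each position, with 1 line per library that held at least 100 cDNAs in this window. The grey line marks the GENCODE and the dotted line the RefSeq 5′ end, which is 7 nt further upstream in SNORA23 and SNORA65.

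Antibody and IgG libraries shared most of this signal. Sites also called in the 2 libraries of its own IgG held 95.5% and 89.7% of upstream cDNAs in dyskerin replicate 1 and 92.9% and 85.3% in replicate 2. For GAR1 against its own IgG these were 99.7% and 84.5% in replicate 1 and 99.4% and 74.0% in replicate 2. Of the 870 nucleotides, 383 were called in all 4 antibody libraries, 16 of those in no IgG library, and 105 in all 8. The same shares were not computed over the 1623913 nucleotides of the whole series. The libraries held from 2747 called sites (replicate 2 of the IgG of the GAR1 set) to 925145 (dyskerin replicate 2). Whether these flanks share more or less with IgG than other sites do was not tested.

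Counts of the flanks were tested with all other features in edgeR. The 2 zones of each snoRNA entered as features of their own among 6614, of which 121 were H/ACA flank zones (108 near and 13 far). In dyskerin against its IgG, 0 of the 121 were called at an adjusted p under 0.05, beside 0% of all features in either direction. At an unadjusted p under 0.05 in edgeR the count was 0 of the 121, beside 1405 higher and 3 lower of all 6614 features. DESeq2 also called 0, both of the flank zones and of all features. The smallest adjusted p among the flanks was 0.325, and SNORA73B had a log2 fold change of -0.49 (SE 1.54, adjusted p = 0.967 in edgeR). The median log2 fold change of the 121 was -0.27, and -0.84 with scaling to total cDNAs. With that scaling 5 of the 121 were lower at an unadjusted edgeR p under 0.05, beside 2035 higher and 42 lower of all 6614 features. With a minimum of 50 counts the median was -4.10, and 40 of 100 were lower and 1 higher, beside 916 higher and 140 lower of 3732. Neither setting called a flank zone at an adjusted p under 0.05.

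In GAR1 against its IgG, 0 of the 121 were called in edgeR or DESeq2. Over all 6614 features edgeR called 0% in either direction, while DESeq2 called 72 higher and 13 lower. An unadjusted edgeR p under 0.05 was reached by 9 of the 121, all of them higher. Among the 6614 features it was reached by 581 with a higher level and by 30 with a lower one. The median log2 fold change of the 121 was 4.58 with TMM scaling and 0.21 with scaling to total cDNAs. TMM factors ran from 0.0674 in GAR1 replicate 2 to 3.42 in replicate 2 of the IgG of the dyskerin set. Without GAR1 replicate 1, 48 of the 121 were called higher, beside 922 of all 6583 features, in a fit that assumes the lone GAR1 library to vary like the other groups.

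In dyskerin against GAR1, 64 of the 121 were called lower (58 near and 6 far) and 0 higher, beside 3.21% of all features called lower and 54.7% called higher. Their median log2 fold change was -6.21 with TMM and -2.82 with total scaling, while the median of all features was 5.66 and 6.49. The bodies of the snoRNAs did likewise, with 95 of 128 called lower and a median of -5.66. SNORA26 had the smallest adjusted p, with 253 and 218 near cDNAs on the same scale in dyskerin, against 3804 and 2631 in GAR1 (log2 fold change -6.64, SE 2.23, adjusted p = 0.0143 in edgeR). Its far zone, with 405 and 750 in dyskerin, against 4636 and 3178 in GAR1, gave -5.62 (SE 2.02, adjusted p = 0.0194 in edgeR). These counts are scaled to total cDNAs and the fold changes to TMM library sizes, so their ratios differ. The others of the first 10, all in the near zone, were SNORA66, SNORA21B, SNORA33, SNORA74D, SNORA17B, SNORA63, SNORA24 and SNORA40.

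For SNORA21B the call rested on 148 cDNAs in GAR1 replicate 2, since both dyskerin libraries and GAR1 replicate 1 had none, and no fold is given. SNORA23 and SNORA65 were among the far flanks called (log2 fold changes -5.37 and -5.40, adjusted p = 0.0283 and 0.0458 in edgeR), and SNORA28 was not (-5.72, adjusted p = 0.078 in edgeR). The 64 calls differed between tools and libraries. DESeq2 called 0 flank zones lower, with a median log2 fold change of -0.70. The number called also changed as single libraries were left out, and each such fit leaves 1 library in a group. The median log2 fold change of the flank zones then ran from -7.16 (without GAR1 replicate 1) to -2.33 (without GAR1 replicate 2). The median of all features ran from 4.09 (without dyskerin replicate 2) to 7.04 (without GAR1 replicate 2).

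Within each RNA no difference in the division between flank and body passed the test in the fit without a replicate term. The upstream count was set against the RNA's own total in edgeR, for RNAs with at least 20 cDNAs in each of 4 libraries. In dyskerin against its IgG, 0 of 60 H/ACA snoRNAs were called. At an unadjusted p under 0.05, 1 was higher, beside 1 higher of all 67 RNAs fitted. In GAR1 against its IgG 0 of 66 were called. At an unadjusted p under 0.05, 5 were lower, beside 5 lower of all 71 RNAs fitted. SNORA57 had the smallest adjusted p of the 66 (0.115 in edgeR, log2 fold difference -1.06, SE 0.33). In dyskerin against GAR1 0 of 111 were called. At an unadjusted p under 0.05 there were 2 higher and 4 lower ones, beside 2 higher and 9 lower of all 238 RNAs fitted. The median log2 fold difference was -0.53 over the 111 and -0.33 over the 238. All snoRNAs and scaRNAs fitted had 0% called in each of these 3 comparisons and in both directions.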

How the data were processed

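According to the methods and processing notes, the authors checked reads with FastQC 0.11.9, trimmed adapters with Cutadapt and aligned them with STAR 2.7.0e to GRCh38. They called crosslink sites in each library with iCount 2.0.1.dev (window of 3 nt on each side, 100 permutations, false discovery rate 0.05, up to 50 alignments of a read). The deposited values used here are counts of cDNAs at called sites, not normalized; deposited clusters of these sites were not used. Because up to 50 alignments were kept, near-identical copies are uncertain.

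Sites were placed by strand on GENCODE 44, bodies before flanks and the nearest 5′ end first. Tests on features with 10 or more counts in 2 libraries used edgeR 4.0.16 (run in R 4.3.3, TMM, quasi-likelihood, 4 groups in 1 fit) and Benjamini-Hochberg adjustment, and DESeq2 1.42.0 was an alternative. Upstream shares were tested in edgeR with each RNA's log total as offset. Library shares were compared by exact permutation, two-sided. The scripts were tested on simulated data. Sequences are from GRCh38 and RefSeq ends from a table of that build.

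Named RNAs were the 10 of highest mean level in each zone, the 5 highest and 5 lowest upstream shares among RNAs with 50 cDNAs in each antibody library, and the called zones of smallest adjusted p, up to 10. Members and lists were chosen with earlier results of these data known. Alternatives covered site weighting, zone limits, 5′ ends, copies, scaling, tool, filters, replicate block and left-out libraries.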

Additional observations from a re-analysis of the deposited data

Results flagged for a closer look

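The upstream shares of 3 named snoRNAs moved in opposite directions from IgG in the dyskerin and GAR1 sets, in both libraries of each antibody against the mean of its own IgG. SNORA73B lay 2.36 percentage points above IgG in dyskerin and -8.81 points from it in GAR1, a difference of 11.2 points. SNORA73A lay 4.73 points above IgG in dyskerin and -6.42 points from it in GAR1, a difference of 11.2 points. SNORA50C, in contrast, lay -7.11 points from IgG in dyskerin and 3.48 points above it in GAR1, a difference of -10.6 points. These differences between the sets were not tested. Both dyskerin libraries of SNORA73B and SNORA73A lay inside the range of their own IgG pair, which was 14.6% and 39.1% for SNORA73B and 7.74% and 29.8% for SNORA73A. Replicate 2 of the IgG of the dyskerin set held 8183 cDNAs in all, and its part in these values was not tested.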

How the results depend on the processing

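The antibody minus IgG difference in the near share of upstream cDNAs changed sign with 3 settings. It was -15.8 percentage points with each site counted once, -1.78 with 1 to 3 nt as the near zone, and -0.0719 without replicate 1 of the IgG of the dyskerin set, and ran from -0.0719 to 1.23 as single libraries were left out. With each site counted once, the near share of all H/ACA cDNAs differed by -3.69 points and the far share by 0.668 points (exact permutation tests, p = 0.0286 each, the smallest this design allows). The differences of these 2 shares ran from -3.00 to -0.877 and from -0.367 to -0.137 as single libraries were left out. H/ACA minus C/D ran from -12.3 to -10.9 points in the same way, and was -8.78 points as a mean over snoRNAs (exact sign-flip permutation test, p = 0.0703). The cause of these changes was not tested. In dyskerin against GAR1 the 64 flank zones called by edgeR became 0 with DESeq2, 8 with no filter on low counts, 100 with a minimum of 50 counts, and from 1 to 77 as single libraries were left out (77 without GAR1 replicate 1 and 21 without GAR1 replicate 2). Over all features of the same fits, 0 of 6614 were called lower with DESeq2, 160 of 14779 with no filter, 529 of 3732 with a minimum of 50, 358 of 6583 without GAR1 replicate 1 and 100 of 6522 without GAR1 replicate 2. In GAR1 against its IgG the count ran from 0 to 48, the 48 without GAR1 replicate 1. Of the 24 named zones, 7 had the opposite sign with DESeq2 (log2 fold changes of 0.75 and 0.61 for the near and far zones of SNORA73B, 0.55 and 1.09 for those of SNORA73A, 0.13 for SNORA81, 0.20 for SNORA61 and 0.0357 for the far zone of SNORA65), and none of these differences passed in DESeq2 (adjusted p from 0.565 to 0.981).

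Replicate numbers were shared by the groups, but deviations of same-numbered libraries correlated by 0.14 or less (from -0.08 to 0.14 over the 6 pairs of groups). The numbers were therefore not taken to pair the libraries. That check used the levels of 6614 features and did not cover the upstream shares. The near share of H/ACA cDNAs was higher in replicate 2 than in replicate 1 in every group but the IgG of the GAR1 set. With the replicate number as a block, 0 flank zones and 0 of all 6614 features in either direction were called in dyskerin against GAR1 (3621 higher and 212 lower without it). The blocked within-RNA test of dyskerin against GAR1 called 28 of 111 H/ACA snoRNAs (2 higher and 26 lower), beside 2 higher and 32 lower of all 238 RNAs fitted, where the unblocked fit called 0. Both comparisons with IgG stayed at 0 called flank zones and 0 called RNAs, and the near share difference at 0.66 points (p = 0.50 by exact permutation within numbers). The small sums of called cDNAs in 2 IgG libraries, 8183 and 10701, limit every comparison with IgG.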
